A study of Mus musculus with 15 samples.

Results

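Messenger RNA of the collagen chain genes was measured by sequencing in mouse hearts. The members are the protein-coding genes whose symbol reads Col, a type number, the letter a and a chain number, as in Col1a1, and they number 41 of the 16658 genes listed. By the structure that their chains build, 10 of the 41 are fibrillar collagens, 8 are collagens of basement membranes, and 23 are of other kinds. The other kinds are fibril-associated, beaded-filament, short-chain, anchoring-fibril and membrane-spanning collagens.

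The tissue was described as the infarct and the muscle around it, and whether hearts labelled sham held an infarct is not known here. It came from male C57BL/6 mice of 8 to 10 weeks. Mice of the aPC group (n = 2 libraries) received activated protein C, an anticoagulant protease, at 1 mg/kg 30 min before surgery. Mice of the dabigatran group (n = 2) received this inhibitor of thrombin (factor IIa) at 10 mg/kg, and mice of the rivaroxaban group (n = 2) this inhibitor of factor Xa at 3 mg/kg, each for 7 days before surgery. The untreated group (n = 2) is named so in the labels, and the sham group (n = 3) is labelled as sham. In the surgery the left anterior descending coronary artery was tied for 90 min, blood flow then returned for 24 h, and drug treatment resumed 2 h after surgery. The labels describe this surgery once for all samples, so untreated and sham are used here as labelled, and no label names a vehicle. Libraries are named by their titles, aPC-791 and aPC-792, Dabi-202 and Dabi-204, Riva-313 and Riva-319, Cont_17 and Cont_19 (untreated), and Sham_003, Sham_006 and Sham_007, and a gene's values are given in that order. The labels list 15 samples, of which 11 have values here, and the other 4 were not analysed here. Nothing in the labels says that the libraries of a group came from separate mice, so each p-value measures only the spread between these samples.

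A collagen molecule is a helical trimer of chains, which are hydroxylated and folded in the endoplasmic reticulum, secreted, trimmed and crosslinked. Fibrillar collagens, above all types I and III, form the fibres between heart muscle cells, are made mainly by fibroblasts and are known as the main protein of the scar after an infarct. Type IV collagen forms the sheet-like network of the basement membranes around muscle cells and vessels, and the multiplexins, types XV and XVIII, sit in or next to that network. Fibril-associated collagens coat fibrils, and type VI collagen forms beaded filaments between fibrils and cells.

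Reads on listed genes ran from 26203566 to 36135006 per library. Levels are given as log2 CPM (a gene's reads scaled to a common library size, on a log2 scale), and a gene was tested when it reached at least 0 in at least 3 libraries, as 13541 genes did. Among the members, 32 of 41 were tested: 8 of 10 fibrillar, 8 of 8 basement membrane and 16 of 23 others. The 6 heart muscle markers in the table (such as Myh6, Tnnt2 and Ryr2) define the labelled tissue and summed to between 41570 and 82051 CPM in each library. The untreated libraries stood furthest apart from each other: limma's estimated library weights were 0.24 for each of them and ran from 0.66 to 3.15 in the other 9. limma estimated the spread once for all 5 groups together, so standard errors (SE, given after ± for log2 fold changes) and p-values against untreated hearts run small. In bulk tissue, fewer cells of a type and less RNA per cell cannot be told apart. With so few libraries per group, the libraries of groups can lie fully apart without any group difference. The share of all genes tested for which they do was not counted. Statements below that libraries lay above or below others are therefore descriptions of single genes only.

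Per kilobase of exon, the collagen RNA of these hearts was led by the type IV genes Col4a2 and Col4a1, with means over the 11 libraries of 112 and 102 CPM per kb. Col3a1 (type III) followed at 36.2, Col6a1 (type VI) at 24.0, Col1a1 (type I) at 22.7, Col15a1 at 15.4 and Col1a2 at 15.3 CPM per kb. The other 34 members averaged 13.0 CPM per kb (Col6a2) or less. Below the type IV pair the order differed between groups: dabigatran hearts averaged 32.6 for Col3a1, 23.6 for Col15a1, 23.1 for Col1a1 and 19.5 CPM per kb for Col6a1, while untreated hearts averaged 8.35 for Col3a1, 8.44 for Col1a1 and 12.3 CPM per kb for Col6a1. Exon length here is the union over all annotated transcripts of a gene, which lowers the value of a gene with many rarely used exons.

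The mix of collagen RNA, on the same per-length scale, differed most in untreated hearts. Col4a1 and Col4a2 together made up 77.4% and 78.7% of it in the untreated libraries, against 40.0%, 43.4% and 46.8% in the sham libraries. They made up 54.2% and 41.2% in aPC hearts, 68.1% and 49.9% in dabigatran hearts and 41.0% and 42.5% in rivaroxaban hearts. The main fibrillar genes, Col1a1, Col1a2 and Col3a1, together held 7.08% and 4.78% in untreated hearts, against 20.2% to 27.2% in sham hearts. Their share was 16.96% and 24.8% in aPC hearts, 8.51% and 19.6% in dabigatran hearts and 25.2% and 25.6% in rivaroxaban hearts. The untreated libraries lay below all others in this fibrillar share and above all others in the type IV share, with Dabi-202 the nearest to them. All collagen genes together took 0.29% ± 0.01 (SD, n = 2) of reads in untreated hearts and 0.35% ± 0.06 (SD, n = 3) in sham hearts, with overlapping ranges.

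**Figure D1:**
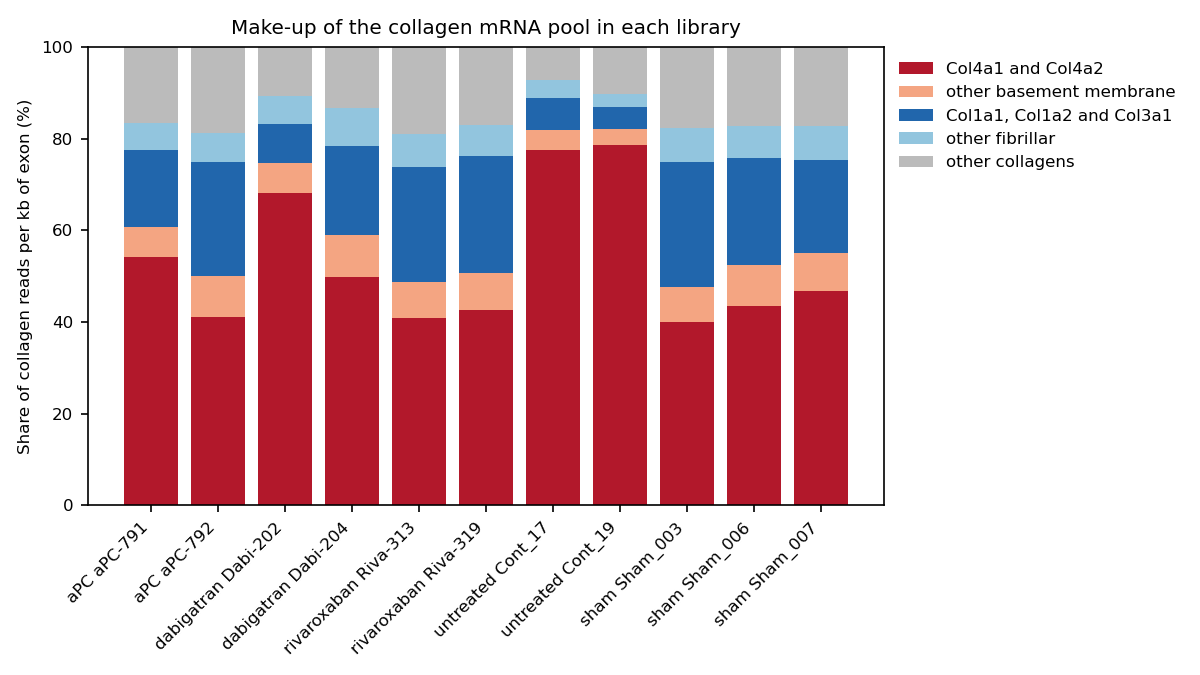
Make-up of the collagen RNA of each library, as the percentage of collagen reads per kb of exon (vertical axis) that belongs to each of 5 gene sets (colours); each bar is 1 library. The type IV genes Col4a1 and Col4a2 fill 77.4% and 78.7% of the bars of the untreated hearts and 40.0% to 46.8% of those of the sham hearts.

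Col4a1 and Col4a2 lie head to head on chromosome 8 of GRCm38 (mm10), in GENCODE release M21. Col4a1 spans 11198423 to 11312826 on the minus strand and Col4a2 spans 11312805 to 11449287 on the plus strand, so that their starts are 21 bases apart and their first exons share 22 bases. The fibrillar gene Col3a1 lies on chromosome 1 from 45311538 to 45349706, Col1a2 on chromosome 6 from 4504814 to 4541544 and Col1a1 on chromosome 11 from 94936224 to 94953042, each on the plus strand. The 300 bases around RefSeq's start (250 before, 50 after, GRCm38.p6) are shown for 4 members, because the type IV genes share a start region and moved against the fibrillar genes in the values given further on. In lower case except the pentamer CCAAT or its reverse complement ATTGG, which are in capitals, and 5′ to 3′ on each gene's own strand, they read:
Col4a1, chr8:11312777-11313076, minus strand: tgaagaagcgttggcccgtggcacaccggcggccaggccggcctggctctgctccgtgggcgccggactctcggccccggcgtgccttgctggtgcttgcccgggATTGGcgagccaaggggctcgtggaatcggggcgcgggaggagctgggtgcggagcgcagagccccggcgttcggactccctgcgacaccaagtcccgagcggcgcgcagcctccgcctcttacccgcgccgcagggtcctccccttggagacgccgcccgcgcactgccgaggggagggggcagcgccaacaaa
Col4a2, chr8:11312555-11312854, plus strand: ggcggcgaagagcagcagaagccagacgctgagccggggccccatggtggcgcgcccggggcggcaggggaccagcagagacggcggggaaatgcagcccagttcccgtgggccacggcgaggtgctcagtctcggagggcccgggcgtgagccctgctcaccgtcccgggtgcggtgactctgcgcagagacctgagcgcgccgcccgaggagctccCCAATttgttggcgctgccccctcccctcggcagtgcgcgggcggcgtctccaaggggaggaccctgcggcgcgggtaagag
Col1a2, chr6:4505368-4505667, plus strand: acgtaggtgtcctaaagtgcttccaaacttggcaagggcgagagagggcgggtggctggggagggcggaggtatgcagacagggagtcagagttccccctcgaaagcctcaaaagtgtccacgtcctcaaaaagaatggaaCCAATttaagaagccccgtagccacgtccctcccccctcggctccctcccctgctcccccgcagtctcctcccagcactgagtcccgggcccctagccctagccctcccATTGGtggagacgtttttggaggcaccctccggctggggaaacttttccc
Col3a1, chr1:45311288-45311587, plus strand: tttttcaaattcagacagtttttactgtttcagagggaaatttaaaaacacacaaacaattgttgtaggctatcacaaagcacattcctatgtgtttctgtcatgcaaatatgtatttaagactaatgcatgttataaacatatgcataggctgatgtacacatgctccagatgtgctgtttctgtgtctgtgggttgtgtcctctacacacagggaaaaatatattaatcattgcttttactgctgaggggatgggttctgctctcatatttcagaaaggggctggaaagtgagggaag
RefSeq's start of Col1a2 lies downstream of the gene start given above from GENCODE, which its window does not hold, while the other 3 genes have the same start in both annotations. The windows of Col4a1 and Col4a2 share 78 of their 300 bases, and each holds 1 CCAAT pentamer. The window of Col1a2 holds 2, and that of Col3a1 holds 0, which says only that these letters are not in this stretch. Windows were found for 32 of the 41 members, 35 windows in all, and CCAAT on either strand was in 31.4% of them, against 37.4% of all 32851 windows of the same length. The letters GGGCGG on either strand, the core of a GC box, were in 60.0% of member windows and 35.7% of all windows, and TATAAA was in 11.4% and 13.6%. Each motif was counted on both strands, overlapping matches were kept, and a match is a description of the sequence only.

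Untreated hearts were compared with sham hearts to ask how the untreated state differed from the sham state. In untreated hearts the fibrillar collagens fell together, while the type IV genes Col4a1 and Col4a2 rose. Of 8 fibrillar genes tested, 7 fell and 0 rose. Of 8 basement membrane genes 2 rose and 2 fell, and of 16 others 2 rose and 5 fell. In all 18 of 32 members were called at an adjusted p under 0.05, against 10.6% of all genes tested. By direction 14 members fell, against 5.52% of all genes, and 4 rose, against 5.07%. The median log2 fold change was -1.26 over the fibrillar genes, -0.53 over the basement membrane genes and -0.42 over the others, beside -0.03 over all genes tested; the last of these class medians changed sign without Cont_17 (0.09).

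Col3a1, the chain of type III collagen, moved furthest of all members. It had log2 CPM values of 7.58 and 8.68 in aPC hearts, 7.17 and 8.95 in dabigatran hearts, 8.70 and 8.97 in rivaroxaban hearts, 6.75 and 5.83 in untreated hearts, and 9.43, 9.07 and 8.50 in sham hearts. Both untreated libraries lay below every other library. Untreated minus sham, the difference was -2.71 ± 0.51 (limma adjusted p = 0.013), a level 6.56-fold lower in untreated hearts. Col1a1, which supplies most chains of type I collagen, had log2 CPM values of 6.48 and 7.31 in aPC hearts, 6.28 and 7.81 in dabigatran hearts, 7.41 and 7.57 in rivaroxaban hearts, 5.95 and 5.61 in untreated hearts, and 7.82, 7.88 and 7.32 in sham hearts. It fell by 1.89 ± 0.39 in untreated hearts relative to sham hearts (limma adjusted p = 0.0177), and its untreated libraries again lay below all others. Col1a2, the partner chain, stood at 6.95 and 7.63 in aPC hearts, 6.56 and 8.12 in dabigatran hearts, 7.68 and 7.94 in rivaroxaban hearts, 6.65 and 6.52 in untreated hearts, and 8.26, 8.02 and 7.61 in sham hearts, and fell by 1.38 ± 0.38 (limma adjusted p = 0.045). Here Dabi-202 lay between the untreated libraries.

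Type V collagen forms the core of type I fibrils and limits their width. Its gene Col5a1 had log2 CPM values of 5.43 and 6.01 in aPC hearts, 5.86 and 7.12 in dabigatran hearts, 6.35 and 6.46 in rivaroxaban hearts, 5.31 and 4.59 in untreated hearts, and 6.92, 6.76 and 6.71 in sham hearts and fell by 1.85 ± 0.33 in untreated hearts (limma adjusted p = 0.0116). Col5a2 stood at 5.50 and 5.90 in aPC hearts, 6.23 and 6.93 in dabigatran hearts, 5.74 and 5.94 in rivaroxaban hearts, 5.42 and 5.21 in untreated hearts, and 6.51, 6.27 and 5.93 in sham hearts. Col5a3 stood at 4.77 and 5.50 in aPC hearts, 5.74 and 6.49 in dabigatran hearts, 5.67 and 5.74 in rivaroxaban hearts, 4.84 and 4.55 in untreated hearts, and 5.91, 6.07 and 5.55 in sham hearts. Untreated libraries of all 3 type V genes lay below all sham libraries, and the differences of Col5a2 and Col5a3 were -0.92 ± 0.23 and -1.15 ± 0.26 (limma adjusted p = 0.0338 and 0.025). Col11a2, a chain of type XI collagen best known from cartilage, had log2 CPM values of 1.33 and 1.31 in aPC hearts, 2.18 and 2.18 in dabigatran hearts, 1.75 and 2.25 in rivaroxaban hearts, 2.86 and 2.23 in untreated hearts, and 3.73, 3.36 and 3.56 in sham hearts. All sham libraries lay above all other libraries, and the untreated difference was -1.003 ± 0.25 (limma adjusted p = 0.0333). Col27a1, the remaining fibrillar gene tested, lay between 2.56 and 4.53 log2 CPM over all libraries and was called in none of the 8 comparisons.

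Among basement membrane collagens, Col4a1 and Col4a2 encode the chains of the type IV trimer found in nearly every basement membrane. Col4a1 had log2 CPM values of 8.79 and 8.93 in aPC hearts, 9.87 and 9.94 in dabigatran hearts, 8.90 and 9.18 in rivaroxaban hearts, 10.08 and 10.39 in untreated hearts, and 9.39, 9.45 and 9.31 in sham hearts. Col4a2 stood at 9.02 and 8.87 in aPC hearts, 9.93 and 9.87 in dabigatran hearts, 8.94 and 9.19 in rivaroxaban hearts, 10.09 and 10.04 in untreated hearts, and 9.38, 9.54 and 9.27 in sham hearts. In both genes the untreated libraries lay above every other library and the aPC and rivaroxaban libraries were lowest, below all sham libraries. Col4a1 rose by 0.85 ± 0.13 (limma adjusted p = 0.00684) and Col4a2 by 0.67 ± 0.13 (limma adjusted p = 0.0142) in untreated hearts, or 1.81-fold and 1.59-fold. The 22 bases that both genes share are 0.29% and 0.33% of their exon lengths.

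The other chains of type IV collagen did not follow Col4a1 and Col4a2. Col4a3 and Col4a4, which join Col4a5 in the network of kidney filters, were low. Col4a3 had log2 CPM values of 0.69 and 0.66 in aPC hearts, -0.42 and 0.28 in dabigatran hearts, 1.20 and 1.11 in rivaroxaban hearts, 0.91 and 1.66 in untreated hearts, and 0.99, 1.39 and 1.02 in sham hearts. Col4a4 stood at 3.07 and 3.45 in aPC hearts, 2.18 and 2.88 in dabigatran hearts, 3.84 and 3.70 in rivaroxaban hearts, 2.84 and 4.16 in untreated hearts, and 3.92, 3.53 and 3.65 in sham hearts. The untreated libraries of Col4a4 lay on both sides of the sham libraries, and the difference was -0.20 ± 0.35 (limma adjusted p = 0.719). Col4a6, a chain of smooth muscle basement membranes, stood at 0.37 and 0.66 in aPC hearts, 0.44 and 1.12 in dabigatran hearts, 1.66 and 2.01 in rivaroxaban hearts, -0.26 and 0.73 in untreated hearts, and 1.69, 1.46 and 1.04 in sham hearts, and Col4a5 lay between 4.97 and 6.46. Neither was called, with differences of -0.86 ± 0.27 (limma adjusted p = 0.0657) for Col4a5 and -1.16 ± 0.37 (limma adjusted p = 0.0667) for Col4a6. An opposite-strand gene, C430014B12Rik, overlaps 5.65% of the exon length of Col4a3, and the strand setting of the counting is not given in the sources used here.

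The multiplexin genes moved against the type IV pair. Col15a1, whose protein lies at the outer face of basement membranes of muscle and capillaries, had log2 CPM values of 5.50 and 6.81 in aPC hearts, 6.52 and 7.70 in dabigatran hearts, 5.90 and 6.57 in rivaroxaban hearts, 5.22 and 5.45 in untreated hearts, and 6.90, 7.40 and 6.58 in sham hearts. It fell by 1.63 ± 0.43 in untreated hearts (limma adjusted p = 0.0379). Col18a1, whose protein is the source of the fragment endostatin, stood at 3.05 and 3.40 in aPC hearts, 4.69 and 4.93 in dabigatran hearts, 3.75 and 4.29 in rivaroxaban hearts, 2.95 and 3.46 in untreated hearts, and 4.15, 4.36 and 4.05 in sham hearts. It fell by 0.98 ± 0.23 (limma adjusted p = 0.0258), and for both genes the untreated libraries lay below all sham libraries. On the per-length scale the multiplexins made up 1.74% and 1.95% of collagen RNA in untreated hearts and 4.49% to 6.21% in sham hearts.

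Type VI collagen joins fibrils to cells through beaded filaments, and its main chains fell with the fibrillar genes. Col6a1 had log2 CPM values of 6.32 and 6.91 in aPC hearts, 6.00 and 6.73 in dabigatran hearts, 6.95 and 6.99 in rivaroxaban hearts, 5.34 and 6.07 in untreated hearts, and 7.25, 7.22 and 6.96 in sham hearts. Col6a2 stood at 6.42 and 6.96 in aPC hearts, 6.13 and 6.83 in dabigatran hearts, 6.97 and 7.00 in rivaroxaban hearts, 5.69 and 5.85 in untreated hearts, and 7.25, 7.33 and 6.94 in sham hearts. Col6a3 stood at 4.89 and 5.92 in aPC hearts, 6.40 and 7.33 in dabigatran hearts, 6.10 and 6.38 in rivaroxaban hearts, 5.70 and 4.67 in untreated hearts, and 6.92, 6.92 and 6.39 in sham hearts. The untreated libraries of all 3 lay below all sham libraries. Untreated minus sham, Col6a1 differed by -1.44 ± 0.27 (limma adjusted p = 0.0126), Col6a2 by -1.40 ± 0.22 (limma adjusted p = 0.0067) and Col6a3 by -1.56 ± 0.38 (limma adjusted p = 0.0319). Col6a6, a chain that can take the place of Col6a3, lay between 2.62 and 4.33 and was not called in any comparison.

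Among the fibril-associated genes, Col14a1 and Col16a1 fell as well. Col14a1, whose protein binds to the surface of type I fibrils, had log2 CPM values of 3.46 and 4.42 in aPC hearts, 2.61 and 4.08 in dabigatran hearts, 3.79 and 3.92 in rivaroxaban hearts, 2.27 and 3.40 in untreated hearts, and 5.08, 4.47 and 4.44 in sham hearts. Col16a1 stood at 3.23 and 3.44 in aPC hearts, 3.61 and 4.63 in dabigatran hearts, 3.997 and 4.14 in rivaroxaban hearts, 3.01 and 2.98 in untreated hearts, and 4.40, 4.35 and 4.14 in sham hearts. Their untreated libraries lay below all sham libraries, with differences of -1.83 ± 0.46 (limma adjusted p = 0.0349) and -1.30 ± 0.26 (limma adjusted p = 0.0152). Col12a1, which also coats fibrils and is known to rise in healing tissue, stood at 1.72 and 1.24 in aPC hearts, 2.38 and 3.12 in dabigatran hearts, 1.62 and 1.03 in rivaroxaban hearts, 2.02 and 2.08 in untreated hearts, and 1.93, 1.77 and 1.98 in sham hearts, with an untreated difference of 0.16 ± 0.29 (limma adjusted p = 0.739). Col20a1 stood at 0.37 and 0.73 in aPC hearts, 1.13 and 1.64 in dabigatran hearts, 2.11 and 2.35 in rivaroxaban hearts, 2.01 and 2.85 in untreated hearts, and 2.21, 2.35 and 2.27 in sham hearts. Its untreated libraries lay on both sides of the sham libraries. Col8a1, a short-chain collagen of vessel walls and the inner heart lining, had log2 CPM values of 4.48 and 5.06 in aPC hearts, 5.62 and 6.32 in dabigatran hearts, 4.501 and 4.92 in rivaroxaban hearts, 4.03 and 4.9999 in untreated hearts, and 5.79, 5.67 and 4.82 in sham hearts, with an untreated difference of -0.92 ± 0.37 (limma adjusted p = 0.121).

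The rises outside the basement membrane were in genes of low level. Col13a1, a membrane-spanning collagen of cell contacts, had log2 CPM values of 1.10 and 0.42 in aPC hearts, -0.42 and 0.74 in dabigatran hearts, 1.52 and 1.47 in rivaroxaban hearts, 2.12 and 3.05 in untreated hearts, and 1.17, 1.22 and 1.14 in sham hearts, and rose by 1.41 ± 0.39 (limma adjusted p = 0.0468). Col22a1, known from the junction of muscle and tendon, stood at -0.32 and -0.56 in aPC hearts, -0.57 and -1.10 in dabigatran hearts, 0.08 and -0.16 in rivaroxaban hearts, 0.71 and 1.13 in untreated hearts, and -0.81, -0.24 and -0.62 in sham hearts, and rose by 1.48 ± 0.35 (limma adjusted p = 0.0273). For both, each untreated library lay above all 9 others. Col7a1, the collagen of anchoring fibrils, stood at -1.08 and -0.32 in aPC hearts, 0.88 and 1.37 in dabigatran hearts, 1.54 and 1.37 in rivaroxaban hearts, 0.71 and 1.58 in untreated hearts, and 1.43, 1.70 and 1.61 in sham hearts. Col28a1, known from the sheaths of peripheral nerves, stood at 1.07 and 0.99 in aPC hearts, -0.57 and 0.09 in dabigatran hearts, 2.29 and 2.00 in rivaroxaban hearts, 1.07 and 0.21 in untreated hearts, and 1.17, 0.12 and 1.81 in sham hearts. For neither was the untreated group apart from the sham group. A level of 0 log2 CPM stands for 1 CPM.

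These 18 calls depended on a few libraries. The count was 8 without Cont_19, 6 without Sham_003, 4 without Sham_006 and 10 without Sham_007. It was 0 when limma weighted the libraries and 11 in a fit of only the untreated and sham groups. Col4a1, Col4a2 and Col6a2 kept their calls in all 11 fits that left out 1 library, Col5a1 and Col6a1 in 10 and Col3a1 and Col16a1 in 9, while Col6a3, Col14a1 and Col15a1 kept theirs in 5 and Col1a2 and Col13a1 in 3. Col1a1 and Col5a3 kept theirs in 8 (lost without Cont_19 or Sham_003 or Sham_006), and Col18a1 in 8 (lost without any one sham replicate). Col11a2 and Col22a1 kept theirs in 7 (lost without Cont_19 or any one sham replicate), and Col5a2 in 6. Col5a1 was not called without Cont_19, Col6a1 without Sham_006, Col3a1 without either of these, and Col16a1 without Sham_003 or Sham_006. Over those fits and the other alternatives the difference of Col3a1 stayed between -3.17 and -2.26 and that of Col1a1 between -2.07 and -1.72. No called gene changed sign. Leaving out 1 library could not change it, because the untreated and sham libraries of the called genes did not overlap.

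Markers of other cells moved with this comparison, and their part in it was not tested. Of 8 fibroblast markers 0 rose and 1 fell (Pi16), and their summed level was 1406 to 1897 CPM in untreated hearts and 1924 to 2062 CPM in sham hearts. Of 8 smooth muscle and pericyte markers 2 fell (Cnn1 and Myh11), with sums of 1063 to 1269 CPM in untreated and 1430 to 1496 CPM in sham hearts. Of 5 macrophage markers 4 fell, with sums of 151 to 170 CPM in untreated and 392 to 557 CPM in sham hearts. Of 5 neutrophil markers 3 rose, with sums of 80.05 to 114 CPM in untreated and 25.7 to 41.5 CPM in sham hearts. Of 6 endothelial markers 1 rose and 2 fell, with sums of 965 to 1151 CPM in untreated and 1000 to 1035 CPM in sham hearts. Of 5 myofibroblast markers 1 fell (Meox1), with sums of 87.7 to 187 CPM in untreated and 209 to 283 CPM in sham hearts. Of 3 mesothelial markers tested 1 rose (Wt1), and the 5 in the table summed to 28.1 to 33.0 CPM in untreated and 7.86 to 14.2 CPM in sham hearts.

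**Figure D2:**
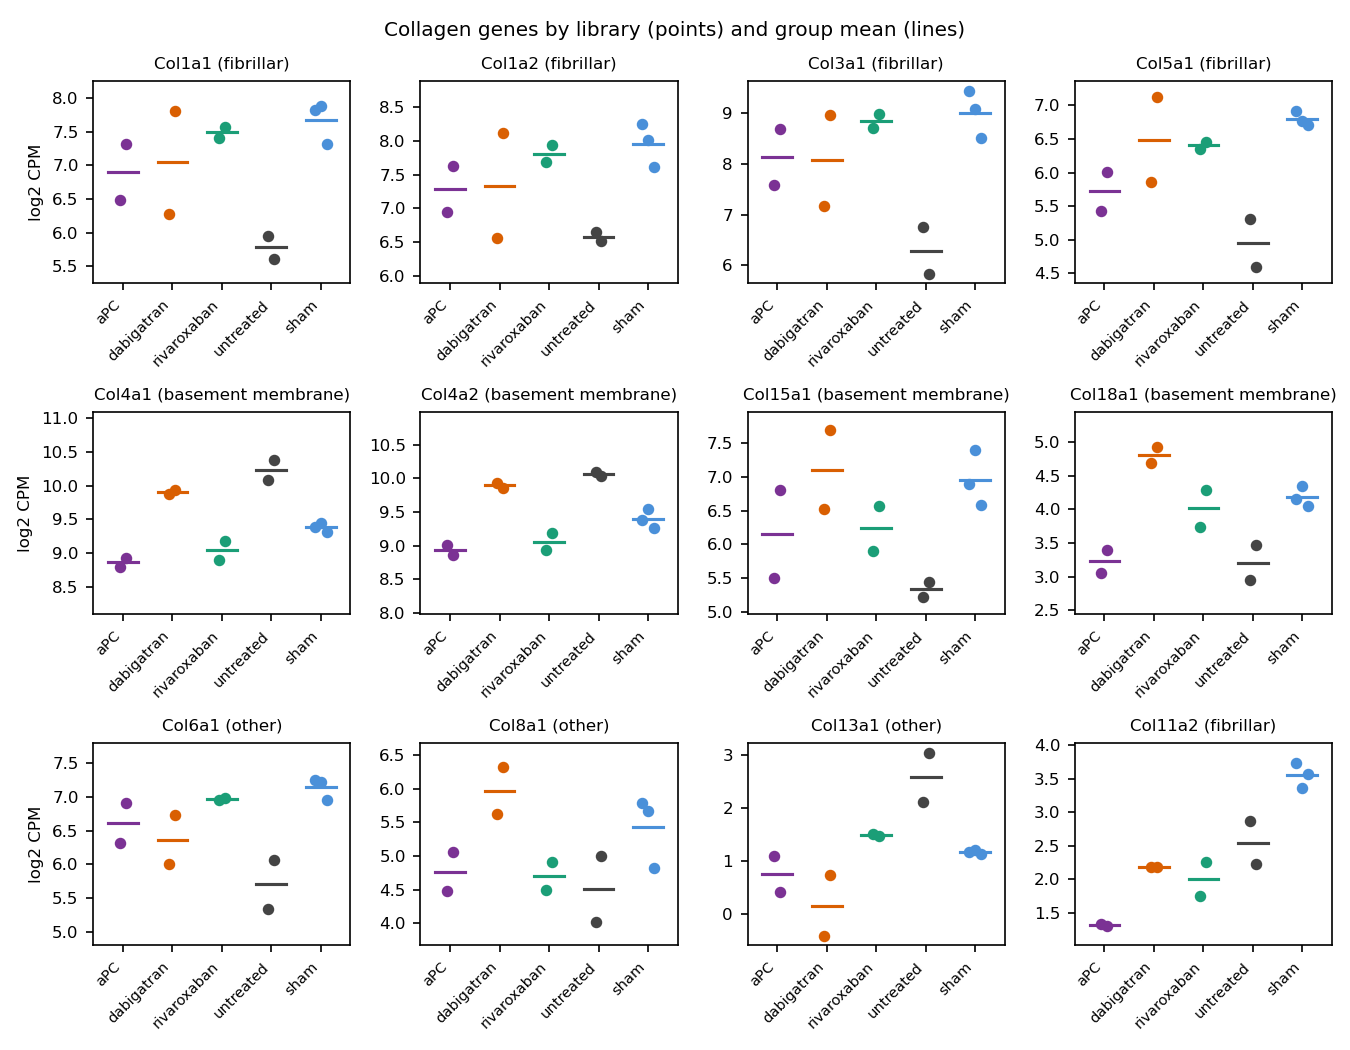
Levels of 12 collagen genes in log2 CPM (vertical axes) by group (horizontal axes); points are libraries and lines are group means. The untreated libraries lie lowest for Col1a1, Col3a1 and Col5a1, from 4.59 to 6.75, and highest for Col4a1 and Col4a2, from 10.04 to 10.39.

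Rivaroxaban hearts were compared with untreated hearts to ask what inhibition of factor Xa changed. Rivaroxaban hearts had more RNA of 3 fibrillar genes and of the type VI genes Col6a1 and Col6a2, and less of Col4a1 and Col4a2, than untreated hearts. In all 9 of 32 members were called, against 8.47% of all genes tested. Of them 7 rose, against 4.02% of all genes, and 2 fell, against 4.45%. The median difference was 1.12 over the fibrillar genes (3 rose, 0 fell), 0.54 over the basement membrane genes (1 rose, 2 fell) and 0.25 over the others (3 rose, 0 fell), beside 0.02 over all genes tested. The last class median was -0.21 without Cont_17.

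The fibrillar genes that rose were Col1a1, Col3a1 and Col5a1. Col3a1 averaged 8.83 ± 0.19 in rivaroxaban hearts and 6.29 ± 0.65 log2 CPM in untreated hearts (SD, n = 2 and 2), a difference of 2.55 ± 0.55 (limma adjusted p = 0.0254) or 5.84-fold. Col1a1 averaged 7.49 ± 0.12 in rivaroxaban hearts and 5.78 ± 0.24 log2 CPM in untreated hearts (SD, n = 2 and 2), a difference of 1.71 ± 0.43 (limma adjusted p = 0.0371). Col5a1 differed by 1.45 ± 0.36 (limma adjusted p = 0.0373). Col1a2 and Col5a3 were not called, at 1.23 ± 0.42 (limma adjusted p = 0.0872) and 1.01 ± 0.29 (limma adjusted p = 0.0565). Of the others, Col6a1 and Col6a2 rose by 1.27 ± 0.29 and 1.21 ± 0.24 and Col16a1 by 1.08 ± 0.28 (limma adjusted p = 0.0285, 0.0188 and 0.0421).

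Col4a1 averaged 9.04 ± 0.20 in rivaroxaban hearts and 10.24 ± 0.21 log2 CPM in untreated hearts (SD, n = 2 and 2), and fell by 1.20 ± 0.15 (limma adjusted p = 0.0032). Col4a2 averaged 9.06 ± 0.18 in rivaroxaban hearts and 10.07 ± 0.04 log2 CPM in untreated hearts (SD, n = 2 and 2), and fell by 1.01 ± 0.14 (limma adjusted p = 0.00536). Col4a6, by contrast, rose by 1.60 ± 0.40 (limma adjusted p = 0.038). Thus chains of the same collagen type went opposite ways in the same libraries. Col15a1 and Col18a1 differed by 0.90 ± 0.47 (limma adjusted p = 0.221) and 0.81 ± 0.25 (limma adjusted p = 0.0686), which missed the threshold.

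The count of 9 was 15 without Cont_17, 0 without Riva-313, 2 without Riva-319 and 5 without any one of Sham_003, Sham_006 and Sham_007. It was 0 with library weights and 0 in a fit of only these 2 groups. Col4a1 and Col4a2 lost their calls only without Riva-313 among the 11 fits that left out 1 library, and Col6a1 and Col6a2 without Riva-313 or Riva-319. Col3a1 lost its call without either of those or Cont_19, while Col1a1 and Col5a1 kept theirs in 5 of the 11, Col4a6 in 4 and Col16a1 in 3. Beside these values, 3 of 8 smooth muscle and pericyte markers rose (1536 to 1621 CPM summed in rivaroxaban hearts, 1063 to 1269 CPM in untreated hearts). Of 8 fibroblast markers 1 rose (1968 to 2039 CPM in rivaroxaban hearts, 1406 to 1897 CPM in untreated hearts). Of 5 macrophage markers 3 rose (304 to 315 CPM in rivaroxaban hearts, 151 to 170 CPM in untreated hearts), and of 5 neutrophil markers 3 fell (13.5 to 32.1 CPM in rivaroxaban hearts, 80.05 to 114 CPM in untreated hearts). The endothelial marker Tie1 rose, at 0.65 ± 0.17, and the mesothelial marker Wt1 fell, at -1.91 ± 0.33 (limma adjusted p = 0.0397 and 0.0115). The endothelial markers summed to 934 to 1002 CPM in rivaroxaban and 965 to 1151 CPM in untreated hearts, and the mesothelial markers to 9.15 to 9.23 CPM in rivaroxaban and 28.1 to 33.0 CPM in untreated hearts. The part of these markers was not tested.

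Dabigatran hearts were compared with untreated hearts to ask what inhibition of thrombin changed. Type V collagen, both multiplexins and Col8a1 rose in dabigatran hearts, while Col4a1 and Col4a2 were not called. In all 11 of 32 members were called, against 13.8% of all genes tested; 8 rose, against 8.71% of all genes, and 3 fell, against 5.08%. The median difference was 1.26 over the fibrillar genes (3 rose, 0 fell), 0.15 over the basement membrane genes (2 rose, 1 fell) and -0.11 over the others (3 rose, 2 fell), beside 0.05 over all genes tested. The medians of the basement membrane genes and the others changed sign between alternatives, from -0.12 to 0.25 and from -0.45 to 0.66. Of the calls over all genes 63.2% were higher in dabigatran hearts, and 46.9% once each library was centred on its median gene (53.1% with quantile normalization).

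Col5a1, Col5a2 and Col5a3 rose by 1.53 ± 0.36, 1.26 ± 0.25 and 1.42 ± 0.29 (limma adjusted p = 0.0226, 0.0108 and 0.0118). Col1a1 and Col3a1 were not called, at 1.27 ± 0.43 (limma adjusted p = 0.074) and 1.78 ± 0.55 (limma adjusted p = 0.0585). The dabigatran libraries differed widely in these genes: Col3a1 stood at 7.17 log2 CPM in Dabi-202 and 8.95 in Dabi-204. Col1a1 stood at 6.28 and 7.81 in the same order.

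Among basement membrane genes, Col18a1 averaged 4.81 ± 0.17 in dabigatran hearts and 3.21 ± 0.36 log2 CPM in untreated hearts (SD, n = 2 and 2), a difference of 1.60 ± 0.25 (limma adjusted p = 0.00327). Col15a1 averaged 7.11 ± 0.83 in dabigatran hearts and 5.33 ± 0.16 log2 CPM in untreated hearts (SD, n = 2 and 2), a difference of 1.78 ± 0.47 (limma adjusted p = 0.0327). Col4a1 and Col4a2 differed by -0.33 ± 0.15 (limma adjusted p = 0.156) and -0.17 ± 0.14 (limma adjusted p = 0.433), and the 95% confidence interval for Col4a2 ran from -0.48 to 0.14. Col4a3 fell by 1.36 ± 0.36 (limma adjusted p = 0.0332).

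Among the others, Col6a3 rose by 1.68 ± 0.42, Col8a1 by 1.46 ± 0.40 and Col16a1 by 1.13 ± 0.28 (limma adjusted p = 0.0273, 0.0393 and 0.0271). Col6a1 and Col6a2, the partners of Col6a3, missed the threshold at 0.66 ± 0.29 (limma adjusted p = 0.148) and 0.71 ± 0.24 (limma adjusted p = 0.0753). Col13a1 fell by 2.43 ± 0.43 (limma adjusted p = 0.00638), a level 5.37-fold lower in dabigatran hearts, and Col22a1 fell by 1.76 ± 0.38 (limma adjusted p = 0.0152).

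The count of 11 was 18 without Cont_17, 5 without Cont_19 and 3 without Dabi-204, and it was 0 with library weights and 0 in a fit of only these 2 groups. Col18a1 and Col13a1 kept their calls in all 11 fits that left out 1 library, Col5a2 and Col5a3 lost theirs only without Dabi-204, Col5a1, Col6a3, Col16a1 and Col22a1 without it or Cont_19, Col15a1 without those or Sham_003, and Col8a1 and Col4a3 kept theirs in 4 and 3. That centring lowered the median of all genes by 0.11 (a shift of -0.11), and Col8a1 was then not called. Of 5 myofibroblast markers 3 rose (Meox1, Tnc and Postn), with sums of 424 to 434 CPM in dabigatran hearts and 87.7 to 187 CPM in untreated hearts. Of 5 neutrophil markers 4 rose (427 to 812 CPM in dabigatran hearts, 80.05 to 114 CPM in untreated hearts), and all 5 macrophage markers rose (501 to 628 CPM in dabigatran hearts, 151 to 170 CPM in untreated hearts). Of 8 fibroblast markers 0 were called (1235 to 1413 CPM in dabigatran hearts, 1406 to 1897 CPM in untreated hearts), with 2 at an unadjusted p under 0.05. Of 6 heart muscle markers 2 fell (Myh6 and Ryr2), with sums of 41570 to 43455 CPM in dabigatran hearts and 63588 to 82051 CPM in untreated hearts. Of 8 smooth muscle and pericyte markers 2 rose (Cnn1 and Cspg4), with sums of 870.02 to 1148 CPM in dabigatran and 1063 to 1269 CPM in untreated hearts. Of 6 endothelial markers 1 rose (Emcn) and 1 fell (Cdh5), with sums of 910.2 to 994 CPM in dabigatran and 965 to 1151 CPM in untreated hearts. Wt1 fell among 3 mesothelial markers tested (7.43 to 11.1 CPM over 5 in dabigatran hearts, 28.1 to 33.0 CPM in untreated hearts). Mbp rose among 4 Schwann cell markers tested (26.1 to 30.3 CPM over 5 in dabigatran hearts, 11.3 to 18.1 CPM in untreated hearts), and Sox9 rose among 2 of cartilage and valve (6.63 to 7.53 CPM over 3 in dabigatran hearts, 2.03 to 3.95 CPM in untreated hearts). The part of these markers was not tested.

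Hearts given aPC were compared with untreated hearts to ask what activated protein C changed. Col4a1 and Col4a2 fell in aPC hearts, Col3a1 and Col6a2 rose, and 5 collagens of low level fell. In all 9 of 32 members were called, against 17.6% of all genes tested; 2 rose, against 7.44% of all genes, and 7 fell, against 10.2%. The median difference was 0.57 over the fibrillar genes (1 rose, 1 fell), -0.11 over the basement membrane genes (0 rose, 2 fell) and 0.24 over the others (1 rose, 4 fell), beside 0.07 over all genes tested. The medians of the basement membrane genes and the others changed sign between alternatives, from -0.57 to 0.07 and from -0.18 to 0.29.

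Col4a1 averaged 8.86 ± 0.10 in aPC hearts and 10.24 ± 0.21 log2 CPM in untreated hearts (SD, n = 2 and 2), and fell by 1.38 ± 0.15 (limma adjusted p = 0.000922). Col4a2 averaged 8.94 ± 0.10 in aPC hearts and 10.07 ± 0.04 log2 CPM in untreated hearts (SD, n = 2 and 2), and fell by 1.13 ± 0.14 (limma adjusted p = 0.00185). Col3a1 rose by 1.84 ± 0.55 (limma adjusted p = 0.0456) and Col6a2 by 0.92 ± 0.24 (limma adjusted p = 0.0282). Col1a1 and Col6a1 were not called, at 1.11 ± 0.43 (limma adjusted p = 0.0905) and 0.91 ± 0.29 (limma adjusted p = 0.055).

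The low-level genes that fell were Col11a2 at -1.22 ± 0.27, Col7a1 at -1.84 ± 0.38, Col13a1 at -1.82 ± 0.43, Col20a1 at -1.88 ± 0.32 and Col22a1 at -1.36 ± 0.38 (limma adjusted p = 0.0165, 0.0124, 0.0204, 0.00623 and 0.0361). For Col7a1 and Col20a1 the aPC libraries lay below all 9 others. Col18a1, called in dabigatran hearts, differed by 0.02 ± 0.25 (limma adjusted p = 0.96) in aPC hearts.

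The count of 9 was 5 without aPC-791 and 4 without aPC-792, 2 with library weights (Col4a1 and Col4a2) and 0 in a fit of only these 2 groups. Col4a1, Col4a2 and Col20a1 kept their calls in all 11 fits that left out 1 library. Col7a1 was not called without aPC-791, Col6a2 without aPC-792, Col11a2 without either of them and Col13a1 without aPC-792 or Cont_19, while Col3a1 and Col22a1 kept their calls in 3 and 4 of the 11. Of 3 mesothelial markers tested 1 rose and 1 fell: Krt19 stood at 4.07 and 2.27 log2 CPM in aPC hearts, against -3.93 (0 reads) and -0.51 in untreated hearts, and Wt1 was lower in aPC hearts. The 5 markers in the table summed to 21.1 to 58.9 CPM in aPC and 28.1 to 33.0 CPM in untreated hearts, and Lrrn4 had 0 reads in both untreated libraries. All 5 macrophage markers rose (576 to 577 CPM in aPC hearts, 151 to 170 CPM in untreated hearts). Of 8 fibroblast markers 1 rose (2244 to 2391 CPM in aPC hearts, 1406 to 1897 CPM in untreated hearts). Of 8 smooth muscle and pericyte markers 1 rose and 2 fell (1206 to 1379 CPM in aPC hearts, 1063 to 1269 CPM in untreated hearts). Of 6 endothelial markers 1 rose (Emcn) and 2 fell (Egfl7 and Cdh5), with sums of 833 to 927 CPM in aPC and 965 to 1151 CPM in untreated hearts. The part of these markers was not tested.

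These 3 comparisons share the 2 untreated libraries, so their values are set side by side and no likeness between them is claimed. Against untreated hearts, Col4a1 differed by -1.38 in aPC, -0.33 in dabigatran and -1.20 in rivaroxaban hearts, and Col3a1 by 1.84, 1.78 and 2.55 in the same order of groups. Col18a1 differed by 0.02, 1.60 and 0.81, and Col13a1 by -1.82, -2.43 and -1.09.

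**Figure D3:**
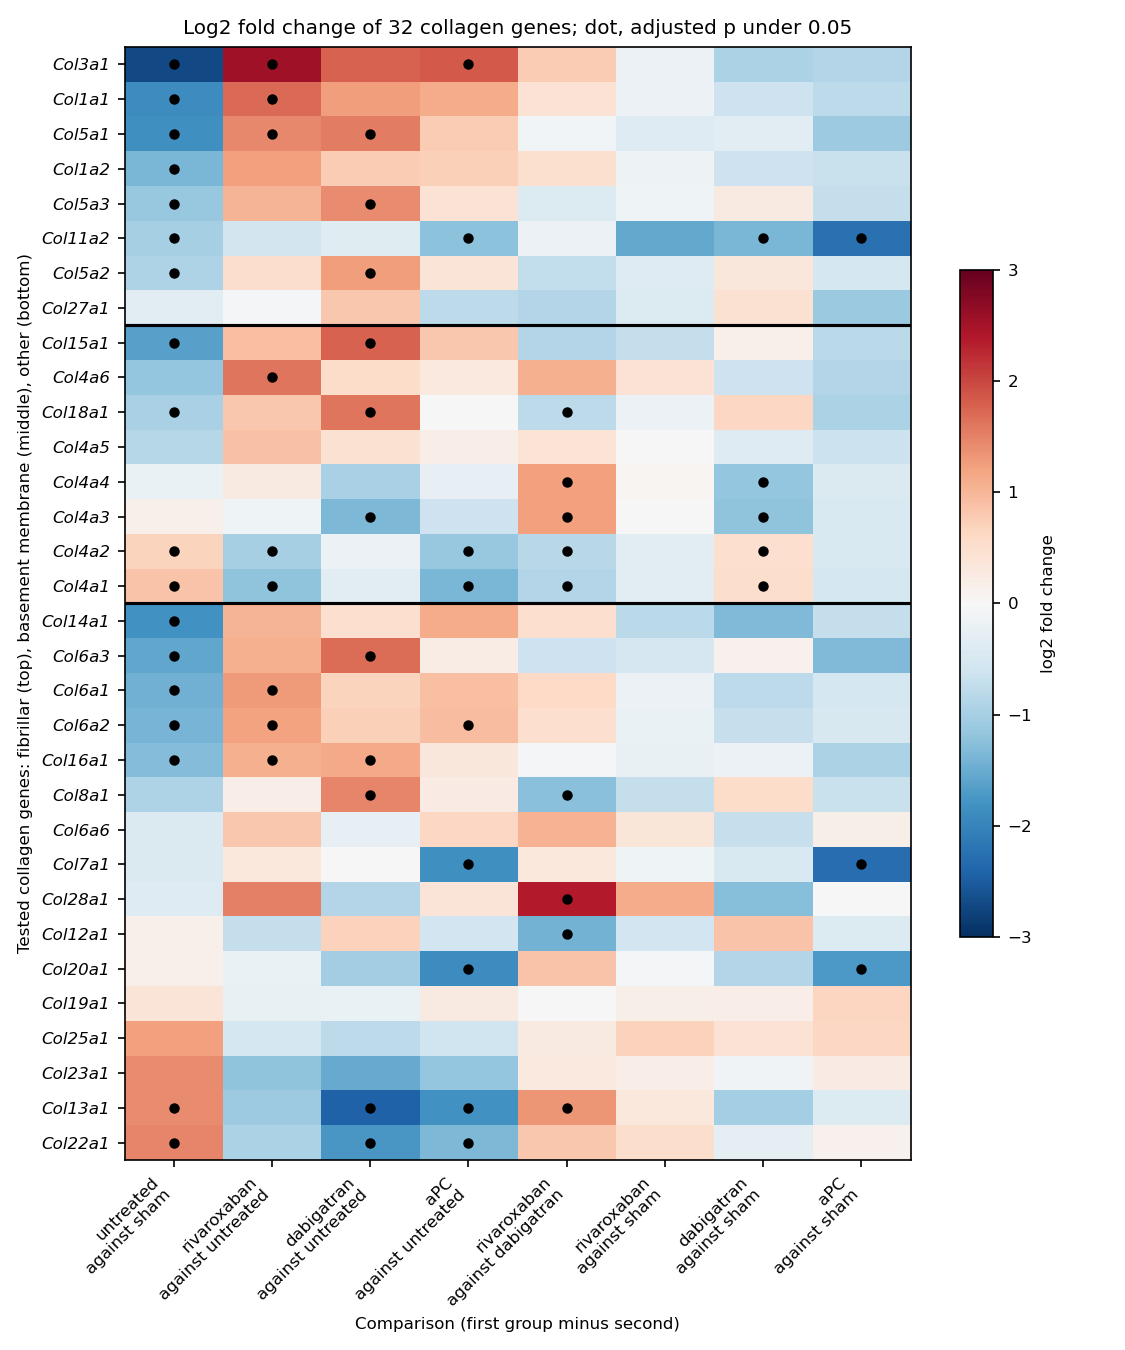
Log2 fold change of the 32 tested collagen genes (rows, fibrillar at the top, basement membrane in the middle, others at the bottom) in 8 comparisons (columns, first group minus second); a dot marks an adjusted p under 0.05. Untreated against sham holds 18 dots and rivaroxaban against sham holds 0.

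Rivaroxaban hearts were set directly against dabigatran hearts, a difference that does not use the untreated mean. Collagen genes were called about as often as all genes tested. The calls lay among basement membrane and other collagens, and 0 calls among 8 fibrillar genes does not set that class apart. In all 9 of 32 members were called, against 23.3% of all genes tested; 4 were higher in rivaroxaban hearts, against 9.39% of all genes, and 5 lower, against 14% of all genes. Of the calls over all genes 40.2% were higher in rivaroxaban hearts, and 53.9% once each library was centred on its median gene. Of 8 fibrillar genes 0 were called by limma, with 2 at an unadjusted p under 0.05 (Col5a2 and Col27a1), and with library weights both of these were called. The difference of Col3a1 was 0.77 ± 0.55, with a 95% confidence interval from -0.46 to 2.00, which is too wide to show that the drugs act alike.

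Col4a1 averaged 9.04 ± 0.20 in rivaroxaban hearts and 9.91 ± 0.05 log2 CPM in dabigatran hearts (SD, n = 2 and 2), a difference of -0.87 ± 0.15 (limma adjusted p = 0.00313). Col4a2 differed by -0.84 ± 0.14 (limma adjusted p = 0.00292). Col4a3 and Col4a4, which share a start region on chromosome 1, were instead higher in rivaroxaban hearts, by 1.23 ± 0.36 and 1.24 ± 0.39 (limma adjusted p = 0.0325 and 0.042). Col18a1 was lower by 0.79 (-0.79 ± 0.25, limma adjusted p = 0.042).

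Of the others, Col28a1 was higher by 2.39 ± 0.51 (limma adjusted p = 0.00937), 5.22-fold, and Col13a1 by 1.33 ± 0.43 (limma adjusted p = 0.048). Col12a1 and Col8a1 were lower in rivaroxaban hearts, at -1.42 ± 0.32 and -1.26 ± 0.40 (limma adjusted p = 0.011 and 0.046). The highest library of both was Dabi-204, at 3.12 and 6.32 log2 CPM.

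The count of 9 was 14 without Cont_17 or Cont_19, 5 without aPC-791 or aPC-792, 4 without Dabi-202, 3 without Riva-313, 4 without Riva-319 or Sham_003, and 5 without Sham_006. With library weights it was 14. Col8a1 and Col18a1 were not called with median centring or with quantile normalization, so these calls depended on the scaling between libraries. Col4a1 and Col4a2 kept their calls in all 11 fits that left out 1 library and in all 7 other alternatives. Col12a1 and Col28a1 kept theirs in 9 of 11 (Col12a1 not without Dabi-204 or Riva-319, Col28a1 not without Dabi-202 or Riva-313), and Col4a4, Col8a1, Col13a1 and Col18a1 in 3. Col4a3 kept its call in 7 of the 11 and lost it in a fit of only these 2 groups. Myofibroblast markers fell in 3 of 5 (103 to 179 CPM summed in rivaroxaban hearts, 424 to 434 CPM in dabigatran hearts) and neutrophil markers in 5 of 5 (13.5 to 32.1 CPM in rivaroxaban hearts, 427 to 812 CPM in dabigatran hearts). Of 5 macrophage markers 3 were lower (304 to 315 CPM in rivaroxaban hearts, 501 to 628 CPM in dabigatran hearts). Of 8 smooth muscle and pericyte markers 3 were higher (1536 to 1621 CPM in rivaroxaban hearts, 870.02 to 1148 CPM in dabigatran hearts), and of 8 fibroblast markers 2 were higher and 1 was lower (1968 to 2039 CPM in rivaroxaban hearts, 1235 to 1413 CPM in dabigatran hearts). Of 6 endothelial markers 1 was higher and 1 lower (934 to 1002 CPM in rivaroxaban hearts, 910.2 to 994 CPM in dabigatran hearts), and 1 of 4 Schwann cell markers tested was lower (27.9 to 30.9 CPM over 5 in rivaroxaban hearts, 26.1 to 30.3 CPM in dabigatran hearts). The part of these markers was not tested.

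The drug groups were also set against sham hearts. Rivaroxaban hearts had 0 of 32 members called, and 0% of all genes tested; 4 members (Col4a1, Col4a2, Col11a2 and Col28a1) and 761 of 13541 genes had an unadjusted p under 0.05, and with library weights limma called 1 member, Col11a2. Col11a2 averaged 2.00 ± 0.36 in rivaroxaban hearts and 3.55 ± 0.19 log2 CPM in sham hearts (SD, n = 2 and 3), a difference of -1.55 ± 0.25 (limma adjusted p = 0.243). Col3a1 differed by -0.17 ± 0.51, with a 95% confidence interval from -1.29 to 0.95, and Col1a1 by -0.18 ± 0.39, with an interval from -1.04 to 0.68. These intervals are wide, so the lack of calls does not show that the groups were alike.

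Dabigatran hearts had 5 of 32 members called against sham hearts, beside 18.5% of all genes tested; 2 rose, against 11.7% of all genes, and 3 fell, against 6.82%. Col4a1 and Col4a2 rose by 0.53 ± 0.13 and 0.50 ± 0.13 (limma adjusted p = 0.0245 and 0.0241), and Col4a3, Col4a4 and Col11a2 fell by 1.20, 1.17 and 1.37 (limma adjusted p = 0.0298, 0.0433 and 0.00622). Neither rise was called once each library was centred on its median gene, when 0 members rose and 6 fell. Of the calls over all genes 63.2% were higher in dabigatran hearts, against 47.8% after that centring. The count of 5 was 14 without Cont_17 or Cont_19, 0 and 13 without Dabi-202 and Dabi-204, 3 without Riva-313 or Riva-319, 1, 3 and 1 without Sham_003, Sham_006 and Sham_007, 9 with library weights and 11 in a fit of only these 2 groups. All 5 neutrophil markers rose (427 to 812 CPM in dabigatran hearts, 25.7 to 41.5 CPM in sham hearts) and 3 of 8 fibroblast markers fell (1235 to 1413 CPM in dabigatran hearts, 1924 to 2062 CPM in sham hearts). Of 6 heart muscle markers 2 fell (41570 to 43455 CPM in dabigatran hearts, 55490.3 to 73166 CPM in sham hearts), and of 8 smooth muscle and pericyte markers 2 fell (870.02 to 1148 CPM in dabigatran hearts, 1430.2 to 1496 CPM in sham hearts). Tnc rose among 5 myofibroblast markers (424 to 434 CPM in dabigatran hearts, 209 to 283 CPM in sham hearts) and Cd68 among 5 macrophage markers (501 to 628 CPM in dabigatran hearts, 392 to 557 CPM in sham hearts). Tie1 fell among 6 endothelial markers (910.2 to 994 CPM in dabigatran hearts, 1000 to 1035 CPM in sham hearts), and Mbp rose among 4 Schwann cell markers tested (26.1 to 30.3 CPM over 5 in dabigatran hearts, 22.7 to 25.0 CPM in sham hearts). The part of these markers was not tested.

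Hearts given aPC had 3 of 32 members called against sham hearts, beside 1.17% of all genes tested; 0 rose, against 0.126% of all genes, and 3 fell, against 1.05%. Col11a2 fell by 2.23 ± 0.25, Col7a1 by 2.28 ± 0.35 and Col20a1 by 1.72 ± 0.29 (limma adjusted p = 0.00558, 0.0198 and 0.0249). Col4a1 and Col4a2 were not called, at -0.52 ± 0.13 (limma adjusted p = 0.0987) and -0.46 ± 0.13 (limma adjusted p = 0.125). The fibrillar median was -0.82, between -1.16 and -0.35 over the alternatives, with all 8 fibrillar genes below 0. The count of 3 was 0 without aPC-791 or aPC-792, 8 without Cont_17 or Cont_19, 1 without any one sham replicate, 15 with library weights and 11 in a fit of only these 2 groups. Of 8 smooth muscle and pericyte markers 2 fell (1206 to 1379 CPM in aPC hearts, 1430 to 1496 CPM in sham hearts). Krt19 rose among 3 mesothelial markers tested, at 4.58 ± 0.90 (limma adjusted p = 0.0397) (21.1 to 58.9 CPM over 5 in aPC hearts, 7.86 to 14.2 CPM in sham hearts). Egfl7 fell among 6 endothelial markers, at -0.93 ± 0.15 (limma adjusted p = 0.0217) (833 to 927 CPM in aPC hearts, 1000 to 1035 CPM in sham hearts). The part of these markers was not tested.

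Some chains that assemble together kept steadier ratios within a library than the genes did alone, and so did a pair of different collagen types. The log2 ratio of Col4a1 to Col4a2 had an SD of 0.14 over the 11 libraries, while the genes had SDs of 0.53 and 0.46. The log2 ratio of Col6a1 to Col6a2, neighbours on the same strand of chromosome 10, had an SD of 0.14, with gene SDs of 0.60 and 0.56. For Col1a1 to Col1a2 the SD was 0.22, with gene SDs of 0.81 and 0.66. For Col5a1 to Col5a2 it was 0.44, with gene SDs of 0.78 and 0.50. Col1a1 to Col3a1, chains of different collagen types, had an SD of 0.37, with gene SDs of 0.81 and 1.15. Pairs of chains that do not assemble were not compared as a set, so steadier ratios are not shown to be particular to partners. The ratio of Col8a1 to Col8a2 was no steadier than its genes, at 0.69 beside 0.68 and 0.69, and Col8a2 lay below the filter. In the type IV and type VI pairs the untreated libraries differed most from each other, at -0.01 and 0.34 for the type IV pair and -0.35 and 0.22 for the type VI pair. These are descriptions over libraries that differ in group, and a ratio within a library is not moved by the scaling between libraries.

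Other neighbouring members had larger SDs of the log2 difference between the genes. Col4a3 and Col4a4, with starts 72 bases apart on chromosome 1, had an SD of the log2 difference of 0.28, beside 0.57 and 0.58 for the genes. Col4a5 and Col4a6, with starts 1309 bases apart on chromosome X, had 0.56, beside 0.46 and 0.68. Col3a1 and Col5a2, tail to tail on chromosome 1, had 0.86, beside 1.15 and 0.50.

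The make-up of fibrillar collagen RNA differed between groups as well. The log2 ratio of Col1a1 to Col1a2, which assemble into type I collagen, averaged -0.80 ± 0.15 in untreated hearts (SD, n = 2) and -0.29 ± 0.15 in sham hearts (SD, n = 3). It was -0.39, -0.29 and -0.32 on average in aPC, dabigatran and rivaroxaban hearts, and the untreated libraries, at -0.91 and -0.69, were the lowest of all 11. The log2 ratio of Col1a1 to Col3a1 averaged -0.50 ± 0.41 in untreated hearts (SD, n = 2) and -1.33 ± 0.25 in sham hearts (SD, n = 3), and both untreated libraries (-0.79 and -0.22) lay above all 9 others. The log2 ratio of Col5a1 to Col5a2 averaged -0.36 ± 0.36 in untreated hearts (SD, n = 2) and 0.56 ± 0.20 in sham hearts (SD, n = 3). For this ratio the untreated libraries, at -0.11 and -0.62, were not apart from all others: Dabi-202 lay between them, at -0.37. These ratios of reads are not ratios of protein chains, and no test was made on them.

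**Figure D4:**
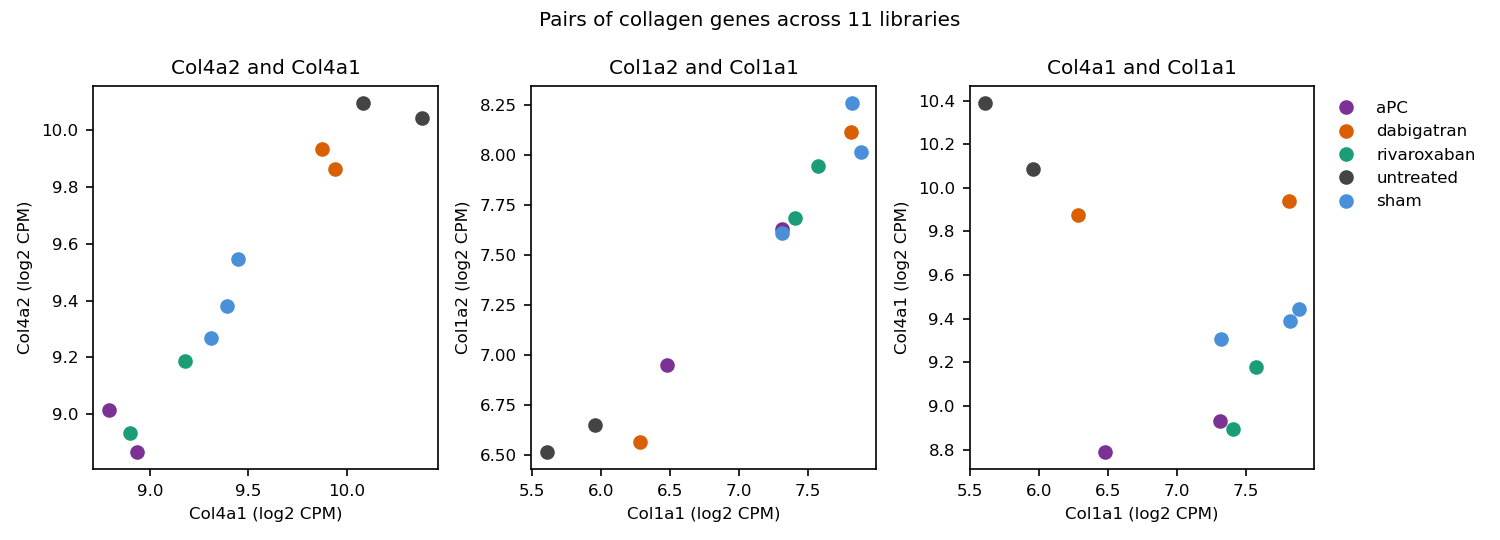
Levels in log2 CPM of pairs of collagen genes in each of 11 libraries (points, coloured by group): Col4a2 against Col4a1, Col1a2 against Col1a1, and Col4a1 against Col1a1. The untreated libraries have the highest Col4a1 (10.08 and 10.39) and the lowest Col1a1 (5.95 and 5.61).

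Genes that make, fold and crosslink collagen were described from a list of 30, of which 29 were tested. In untreated hearts 8 of 29 fell and 1 rose relative to sham hearts, beside 5.52% and 5.07% of all genes. Serpinh1, the chaperone that binds folded procollagen, fell by 1.41 ± 0.21, P4ha1, a subunit of the prolyl hydroxylase, by 1.07 ± 0.19 and Loxl2, a crosslinking enzyme, by 1.27 ± 0.24 (limma adjusted p = 0.00575, 0.0106 and 0.0134). Lox, the crosslinking lysyl oxidase, rose by 1.85 ± 0.35 (limma adjusted p = 0.0135). It moved against the fibrillar genes that it crosslinks.

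In dabigatran hearts 7 of the 29 rose and 0 fell relative to untreated hearts, beside 8.71% and 5.08% of all genes. Serpinh1 rose by 1.81 ± 0.23 (limma adjusted p = 0.00144), P4ha1 by 1.03 ± 0.20 (limma adjusted p = 0.0104), Ppib, a prolyl isomerase that assists collagen folding, by 0.73 ± 0.15 (limma adjusted p = 0.011) and P4hb, the other subunit of the prolyl hydroxylase, by 0.84 ± 0.18 (limma adjusted p = 0.0131). In rivaroxaban hearts 1 of 29 rose (Colgalt2, a collagen galactosyltransferase) and 1 fell, beside 4.02% and 4.45% of all genes, and the fall was Lox at -2.31 ± 0.38 (limma adjusted p = 0.0094). In aPC hearts 3 rose and 3 fell, beside 7.44% and 10.2% of all genes. Serpinh1 rose by 1.17 ± 0.23 (limma adjusted p = 0.0109) there, while Lox fell by 1.91 ± 0.38 and Bmp1, which cuts off the end of procollagen, by 0.67 ± 0.14 (limma adjusted p = 0.0112 and 0.012). Rivaroxaban and dabigatran hearts, set against each other, had 0 of 29 higher and 7 lower, beside 9.39% and 14% of all genes, with Serpinh1 at -1.31 ± 0.23 (limma adjusted p = 0.00377) and Lox at -1.99 ± 0.38 (limma adjusted p = 0.00544). Against sham hearts the counts of higher and lower were 4 and 1 in dabigatran, 0 and 1 in aPC and 0 and 0 in rivaroxaban hearts, the last with 5 at an unadjusted p under 0.05. Of all genes 11.7% and 6.82% were higher and lower in dabigatran hearts, 0.126% and 1.05% in aPC hearts and 0% and 0% in rivaroxaban hearts.

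**Figure D5:**
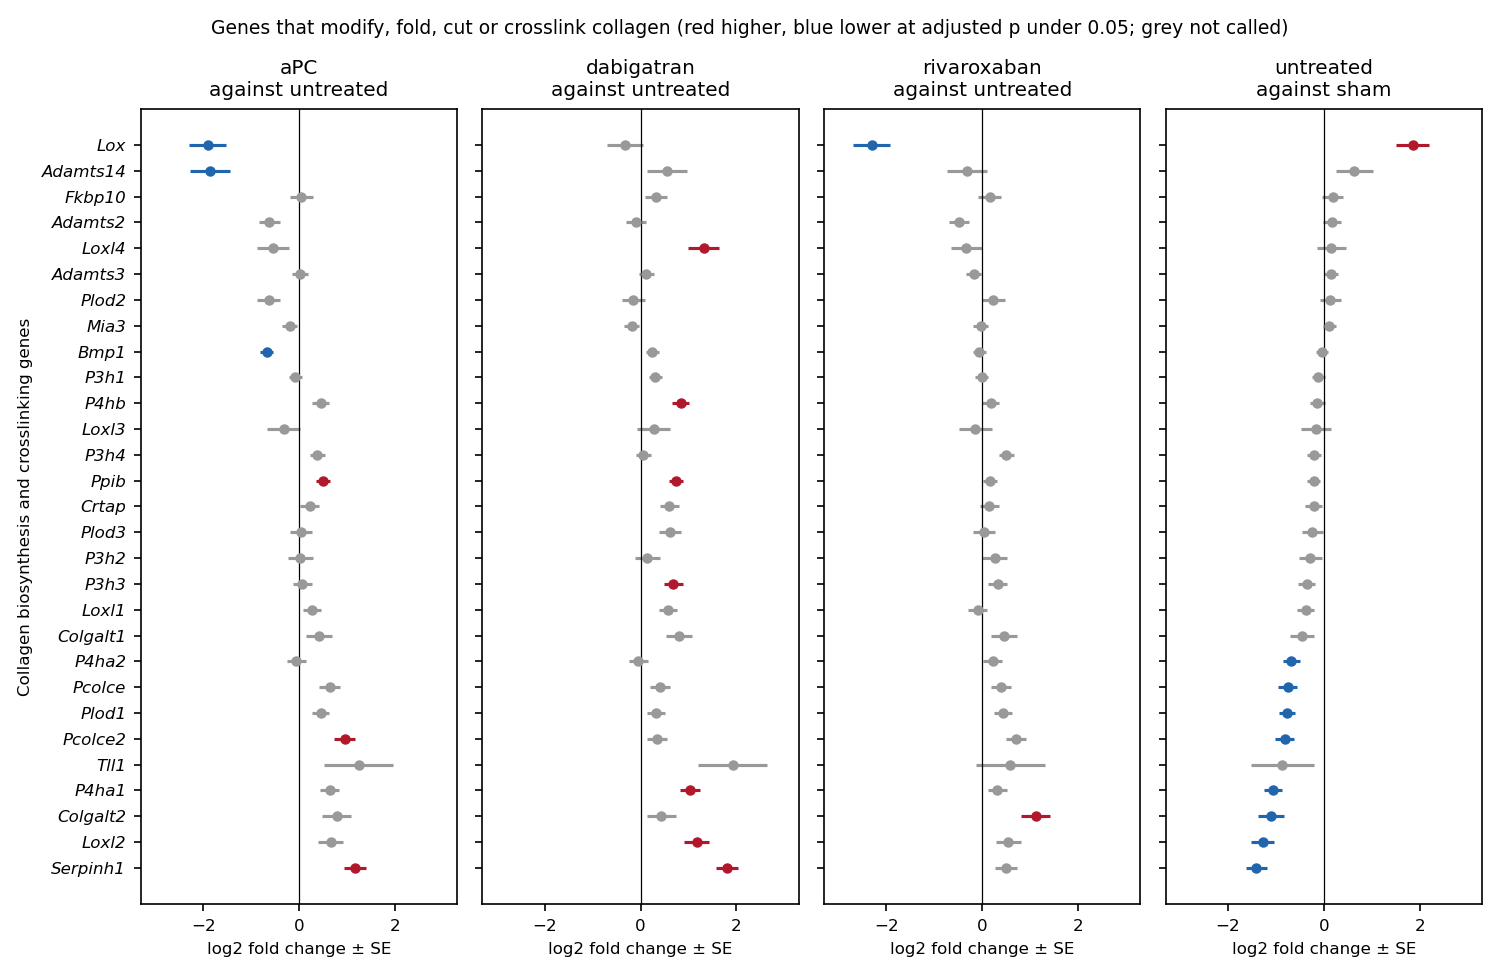
Log2 fold change (points) with limma's SE (bars) of 29 genes that modify, fold, cut or crosslink collagen, in 4 comparisons (panels, first group minus second); red points were called higher and blue points lower. Serpinh1 stands at -1.41 in untreated against sham hearts and at 1.81 in dabigatran against untreated hearts.

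Of 10 tested collagen receptor genes, 1 rose and 3 fell in untreated hearts relative to sham hearts, against 5.07% and 5.52% of all genes tested. Lair1, an inhibitory collagen receptor of white blood cells, fell by 2.18 ± 0.36 (limma adjusted p = 0.00828), as did Mrc2, which takes up collagen, at -0.81 ± 0.21 (limma adjusted p = 0.0363). Itgb1, the shared subunit of the collagen-binding integrins, rose by 0.53 ± 0.14 (limma adjusted p = 0.0376). Relative to untreated hearts Lair1 was higher by 2.47 ± 0.39 in aPC, 2.75 ± 0.39 in dabigatran and 2.23 ± 0.39 in rivaroxaban hearts (limma adjusted p = 0.00466, 0.00232 and 0.0122), and these comparisons share the untreated libraries. Lair1 was the 1 receptor gene of 10 called in aPC hearts (7.44% of all genes rose and 10.2% fell) and in dabigatran hearts (8.71% rose and 5.08% fell). In rivaroxaban hearts (4.02% rose and 4.45% fell) Itgb1 fell by 0.60 ± 0.15 beside it (limma adjusted p = 0.0371). Of 5 macrophage markers 4 fell in untreated relative to sham hearts, while 3 of 5 neutrophil markers rose. Relative to untreated hearts 5 macrophage markers rose in aPC, 5 in dabigatran and 3 in rivaroxaban hearts. Of the neutrophil markers 0 were called in aPC hearts, 4 rose in dabigatran and 3 fell in rivaroxaban hearts. The part of these cells in the Lair1 values was not tested.

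Among 8 tested genes of collagen breakdown, 3 rose and 1 fell in untreated hearts relative to sham hearts, against 5.07% and 5.52% of all genes tested. The metalloproteinase gene Mmp14 rose by 0.89 ± 0.15 (limma adjusted p = 0.00963), Mmp9 by 1.47 ± 0.34 (limma adjusted p = 0.0242) and Mmp8 by 3.32 ± 0.91 (limma adjusted p = 0.0441), and the inhibitor gene Timp2 fell by 0.73 ± 0.19 (limma adjusted p = 0.0371). Mmp9 and Mmp8 are neutrophil products, 3 of 5 neutrophil markers rose in the same comparison, and their part was not tested. In rivaroxaban hearts the same 3 metalloproteinase genes fell relative to untreated hearts, against 4.45% of all genes, with Mmp14 at -0.81 ± 0.17 (limma adjusted p = 0.021), and 0 of the 8 rose, against 4.02%. In dabigatran hearts Mmp9 rose by 2.96 ± 0.37 (limma adjusted p = 0.00121) and Mmp13 by 2.33 ± 0.58 (limma adjusted p = 0.0276), while Mmp2 fell by 0.69 ± 0.21 (limma adjusted p = 0.0496); 8.71% of all genes rose and 5.08% fell there. In aPC hearts 1 rose (Timp2) and 1 fell (Mmp14) relative to untreated hearts, against 7.44% and 10.2% of all genes.

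Of 10 tested fibril partners, such as small proteoglycans and fibronectin, 0 rose and 1 fell in untreated hearts relative to sham hearts (Prelp, at -1.84 ± 0.49, limma adjusted p = 0.0405), against 5.07% and 5.52% of all genes tested. In dabigatran hearts 3 rose relative to untreated hearts, against 8.71% of all genes, Fn1 (fibronectin) by 2.64 ± 0.29 (limma adjusted p = 0.000744), Postn by 2.12 ± 0.46 (limma adjusted p = 0.0151) and Bgn by 0.96 ± 0.27 (limma adjusted p = 0.0438), and 0 fell, against 5.08%. Relative to untreated hearts 1 rose in aPC hearts (Prelp) and 1 in rivaroxaban hearts (Thbs2), against 7.44% and 4.02% of all genes, and 0 fell in either, against 10.2% and 4.45%. Rivaroxaban hearts had 2 of the 10 higher than dabigatran hearts (Thbs2 and Tnxb), against 9.39% of all genes, and 2 lower (Fn1 and Postn), against 14%, with Fn1 at -2.06 ± 0.29 (limma adjusted p = 0.00125). Relative to sham hearts, Fn1 rose and Tnxb and Dpt fell in dabigatran hearts, against 11.7% and 6.82% of all genes, and Tnxb fell in aPC hearts, against 1.05%.

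Of 13 tested basement membrane partners 0 rose and 1 fell in untreated hearts relative to sham hearts (the laminin gene Lama4, at -0.89 ± 0.20, limma adjusted p = 0.0214), against 5.07% and 5.52% of all genes tested. In aPC hearts 0 rose and 3 fell relative to untreated hearts, against 7.44% and 10.2% of all genes, namely Hspg2 (perlecan), Lama5 and Agrn (agrin), with Hspg2 at -1.14 ± 0.22 (limma adjusted p = 0.00959). The same 3 fell in aPC hearts relative to sham hearts, against 1.05% of all genes, with Hspg2 at -1.37 ± 0.20 (limma adjusted p = 0.019). Col4a1 and Col4a2 fell in the same aPC libraries relative to untreated hearts, while in rivaroxaban hearts 0 of the 13 partners were called by limma against untreated hearts, with 3 at an unadjusted p under 0.05. In dabigatran hearts 1 rose (Lama4) and 1 fell (Lamb3) relative to untreated hearts, against 8.71% and 5.08% of all genes. Relative to sham hearts 4 fell in dabigatran hearts (Lamb2, Lama5, Lamb3 and Agrn), against 6.82% of all genes. The same 4 were higher in rivaroxaban than in dabigatran hearts, against 9.39% of all genes, and 0 were lower, against 14%, with Lamb3 at 1.12 ± 0.21 (limma adjusted p = 0.00452) and Lama5 at 1.25 ± 0.26 (limma adjusted p = 0.00849).

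The remaining members gave no call or lay below the filter. Col19a1, Col23a1 and Col25a1 were tested and called in no comparison. Col19a1 lay between 2.37 and 3.21 log2 CPM and Col25a1 between -0.87 and 0.81. Col23a1 had 889 reads in Cont_19 and 88 to 172 in the other 10 libraries, so its untreated mean rests on that library. The 9 members below the filter were Col2a1, Col24a1, Col6a5, Col8a2, Col9a1, Col9a2, Col9a3, Col17a1 and Col26a1. Col2a1, the cartilage collagen, had 63 reads in Cont_19, 0 in both aPC libraries and at most 11 elsewhere. The highest value of the other 8 was 0.02 log2 CPM, for Col9a3 in Sham_003.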

How the data were processed

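Polyadenylated RNA of heart tissue was sequenced, from 500 ng of total RNA per sample. The authors deposited a table of log2 CPM values for 16658 annotated genes, normalized between libraries by the trimmed mean of M-values, per the file headers. The submitters' processing notes name bcl2fastq, FastQC, Trim Galore, STAR, edgeR and the build mm10, without versions or roles; neither the counting tool nor its strand setting is given in the sources used here. Low values step by whole reads: 100% of values came out whole within 0.05 of a read, and a value of -3.93 stands for 0 reads.

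limma 3.58.1 (R 4.3.3) fitted 5 group means to the deposited log2 CPM of the 11 libraries with an intensity trend, on genes of at least 0 log2 CPM in at least 3 libraries. In each of 8 comparisons a gene was called when its p, adjusted by Benjamini-Hochberg over the 13541 genes tested, was under 0.05. Intervals are 95% confidence intervals of limma's fit. Tables and figures were made with Python 3.11.15, numpy 2.4.6, pandas 2.3.3 and matplotlib 3.10.9. CPM per kb used exon unions of GENCODE M21 on GRCm38, and promoter windows came from RefSeq's GRCm38.p6 annotation.

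The members, their classes, the partner and marker lists and the tests were chosen with earlier results of these data known. Every member called at least once was named, with its value in every library. A few calls among the partner and marker lists are not reported here. No outlier test was made, since no group holds 4 or more libraries. Alternatives were no filter, a stricter filter, log2(CPM + 1), median centring, quantile normalization, library weights, a fit of only the groups compared, and leaving out each library.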

Additional observations from a re-analysis of the deposited data

How the results depend on the processing

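No paired analysis was possible because the groups have no replicate number in common. The counts of collagen genes called moved with library weights and with the libraries fitted. Weights gave 0 in untreated against sham hearts (18 in the reported fit), 0 in rivaroxaban (9) and 0 in dabigatran (11) against untreated hearts, and 2 in aPC against untreated hearts (9). They gave 14 in rivaroxaban against dabigatran hearts (9), and 1 in rivaroxaban (0), 9 in dabigatran (5) and 15 in aPC hearts (3) against sham hearts. A fit of only the groups compared gave 11 in untreated, 11 in dabigatran and 11 in aPC hearts against sham hearts, and 0 in each drug group against untreated hearts. Leaving out each library in turn gave 4 to 21 in untreated against sham hearts, 0 to 15 in rivaroxaban, 3 to 18 in dabigatran and 4 to 13 in aPC hearts against untreated hearts, and 3 to 14 in rivaroxaban against dabigatran hearts. Against sham hearts it gave 0 to 0 in rivaroxaban, 0 to 14 in dabigatran and 0 to 8 in aPC hearts. The cause of these shifts was not tested. Of 434 values of single called genes under the alternatives other than leaving out single libraries, 337 kept their direction and call, 97 kept only the direction and 0 turned round; leaving out libraries gave 480, 224 and 0 of 704. The 0 of 704 was fixed in advance, because the libraries of the groups compared did not overlap for any called member. Where a group was left with 1 library, that library was assumed to vary like the other groups. Depth limits the 9 members below the filter, for which 3 reads correspond to about -2.41 log2 CPM in aPC-791.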
